A study of Mus musculus with 35 samples.

Results

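A set of 9 genes that mark club cells and other secretory cells of the airway lining was followed through the whole-lung libraries of the series: Scgb1a1, Scgb3a1, Scgb3a2, Cyp2f2, Cldn10, Muc5b, Bpifa1, Bpifb1 and Reg3g. They were taken by gene symbol from a table of 54532 genes, and all 9 passed the filter on low counts in each of the 18 pairwise comparisons. RNA sequencing was done on whole lung from adult mice of at least 3 months in 3 genotypes. Control mice were B6/129SJ2 and Cav1-KO mice carried the Cav1(tm1Mls/)J deletion of caveolin-1 in every cell. Cav1-RC mice kept a caveolin-1 knockout in other cell types, with caveolin-1 returned to endothelial cells alone. By design, epithelial cells thus lacked caveolin-1 in both mutant genotypes. The study names separate sources for the mutant lines. Females and males of each genotype were kept in room air (normoxia) or in 10% oxygen for 6 weeks (hypoxia), which gave 12 groups of 3 libraries, except for 2 libraries each of normoxic Cav1-KO females and normoxic Cav1-RC females. In all, 34 libraries had a group, and 1 library whose identity the labels call uncertain, as perhaps a normoxic Cav1-KO female, entered no comparison. By the deposited mm10 annotation the genes span these gene bodies: Scgb1a1 (ENSMUSG00000024653) at chr19:9083636-9087958, Scgb3a1 (ENSMUSG00000064057) at chr11:49663610-49665118, Scgb3a2 (ENSMUSG00000038791) at chr18:43764289-43767399, Cyp2f2 (ENSMUSG00000052974) at chr7:27119909-27133660, Cldn10 (ENSMUSG00000022132) at chr14:118787908-118875489, Muc5b (ENSMUSG00000066108) at chr7:141839070-141873084, Bpifa1 (ENSMUSG00000027483) at chr2:154142880-154149219, Bpifb1 (ENSMUSG00000027485) at chr2:154190818-154220369 and Reg3g (ENSMUSG00000030017) at chr6:78466269-78468872. Scgb1a1 and Reg3g are on the minus strand and the others on the plus strand.

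Club cells are the main secretory cells of the mouse bronchiole. They release secretoglobins onto the airway surface, detoxify inhaled compounds with cytochrome P450 enzymes and act as progenitors of ciliated cells. Secretory cells of the larger airways and submucosal glands make gel-forming mucin and the bactericidal/permeability-increasing (BPI) fold proteins, which coat and defend the surface, and they can raise antimicrobial lectins such as Reg3g under interleukin-17 and interleukin-22. Because whole lung was sequenced, fewer secretory cells and less RNA per cell cannot be told apart, and the share of conducting airway in each piece of tissue enters every value.

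Libraries held 12425535 to 33343006 gene counts, and no pair of libraries in a group agreed within sampling noise. Cav1 was at 976 to 1360 CPM (counts scaled to library total and edgeR's TMM factor) in Control, 1.62 to 3.93 CPM in Cav1-KO and 1.48 to 6.47 CPM in Cav1-RC, so by this gene Cav1-RC could not be distinguished from Cav1-KO, and whether reads of the returned gene would be counted as Cav1 is not given in the sources used here. Xist went against the sex label in 3 of 18 male libraries: it was at 749 and 866 CPM in Cav1-RC normoxia replicates 1 and 2 and at 777 CPM in Control hypoxia replicate 2. Among females, Cav1-KO hypoxia replicate 2 carried 7.81 CPM of the Y-linked Ddx3y. The animal numbers of 12 libraries also occur in the source data of the study's western blots. These 12 were all hypoxic Cav1-KO mice of both sexes, all hypoxic Control males, and replicate 1 of the normoxic Control, normoxic Cav1-RC and hypoxic Control females. Of the 18 comparisons, 6 set a group wholly on that list against one wholly off it, so that list and condition cannot be told apart there, and 5 held libraries of 1 kind only. The lung label was checked by the alveolar marker Sftpc, which was at 8794 to 21921 CPM and by the ciliated cell regulator Foxj1, at 61.1 to 249 CPM. Of markers of neighbouring structures, the cartilage genes Col2a1 and Acan reached 0.629 and 1.47 CPM and the squamous keratins Krt13 and Krt4 reached 0.568 and 0.541 CPM, whereas the cardiac myosin gene Myh6 was at 33.3 to 750 CPM. Summed, a list of 12 airway cartilage genes ran from 3.09 to 16.9 CPM over the libraries. The part of these structures in the values of the members was not tested.

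Scgb1a1, the club cell secretory protein, had more counts than any other gene in all 34 libraries and took 1.31% to 6.80% of a library's counts, with a median of 2.59%. All 9 genes together took 1.49% to 7.66%. Per length, in FPKM (fragments scaled to gene length and library depth), the median over the 34 libraries was 55719 for Scgb1a1, far above the next members. Scgb3a2, a second club cell secretoglobin, was at 1164 FPKM, and Cyp2f2, the cytochrome P450 that activates naphthalene in club cells, was at 1110 FPKM. Scgb3a1, a secretoglobin of larger airways, followed at 424.6 FPKM. Lower still were the BPI fold proteins, with Bpifa1 at 56.8 FPKM and Bpifb1 at 28.3 FPKM, then the C-type lectin Reg3g at 23.0 FPKM, the tight junction claudin Cldn10 at 11.1 FPKM and the gel-forming mucin Muc5b at 7.61 FPKM.

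From the lowest to the highest of the 34 libraries, the level in CPM spanned 4.18-fold for Cyp2f2, 4.78-fold for Cldn10, 5.29-fold for Scgb1a1, 7.99-fold for Scgb3a2 and 8.24-fold for Muc5b. It spanned 31.4-fold for Bpifb1, 35-fold for Scgb3a1, 88.3-fold for Reg3g and 263-fold for Bpifa1, which ran from 2.05 to 538 CPM. Within groups the median coefficient of variation ran from 20.0% for Cldn10 to 50.6% for Reg3g. Scgb1a1 had its lowest group mean in normoxic Cav1-KO females (13935 ± 1128 CPM, SD, n = 2) and its highest in hypoxic Cav1-KO males (48886 ± 4363 CPM, SD, n = 3). When the 12 groups were put in order of Scgb1a1, 9 of the 11 neighbouring pairs overlapped, and for Reg3g all 11 did.

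**Figure D1:**
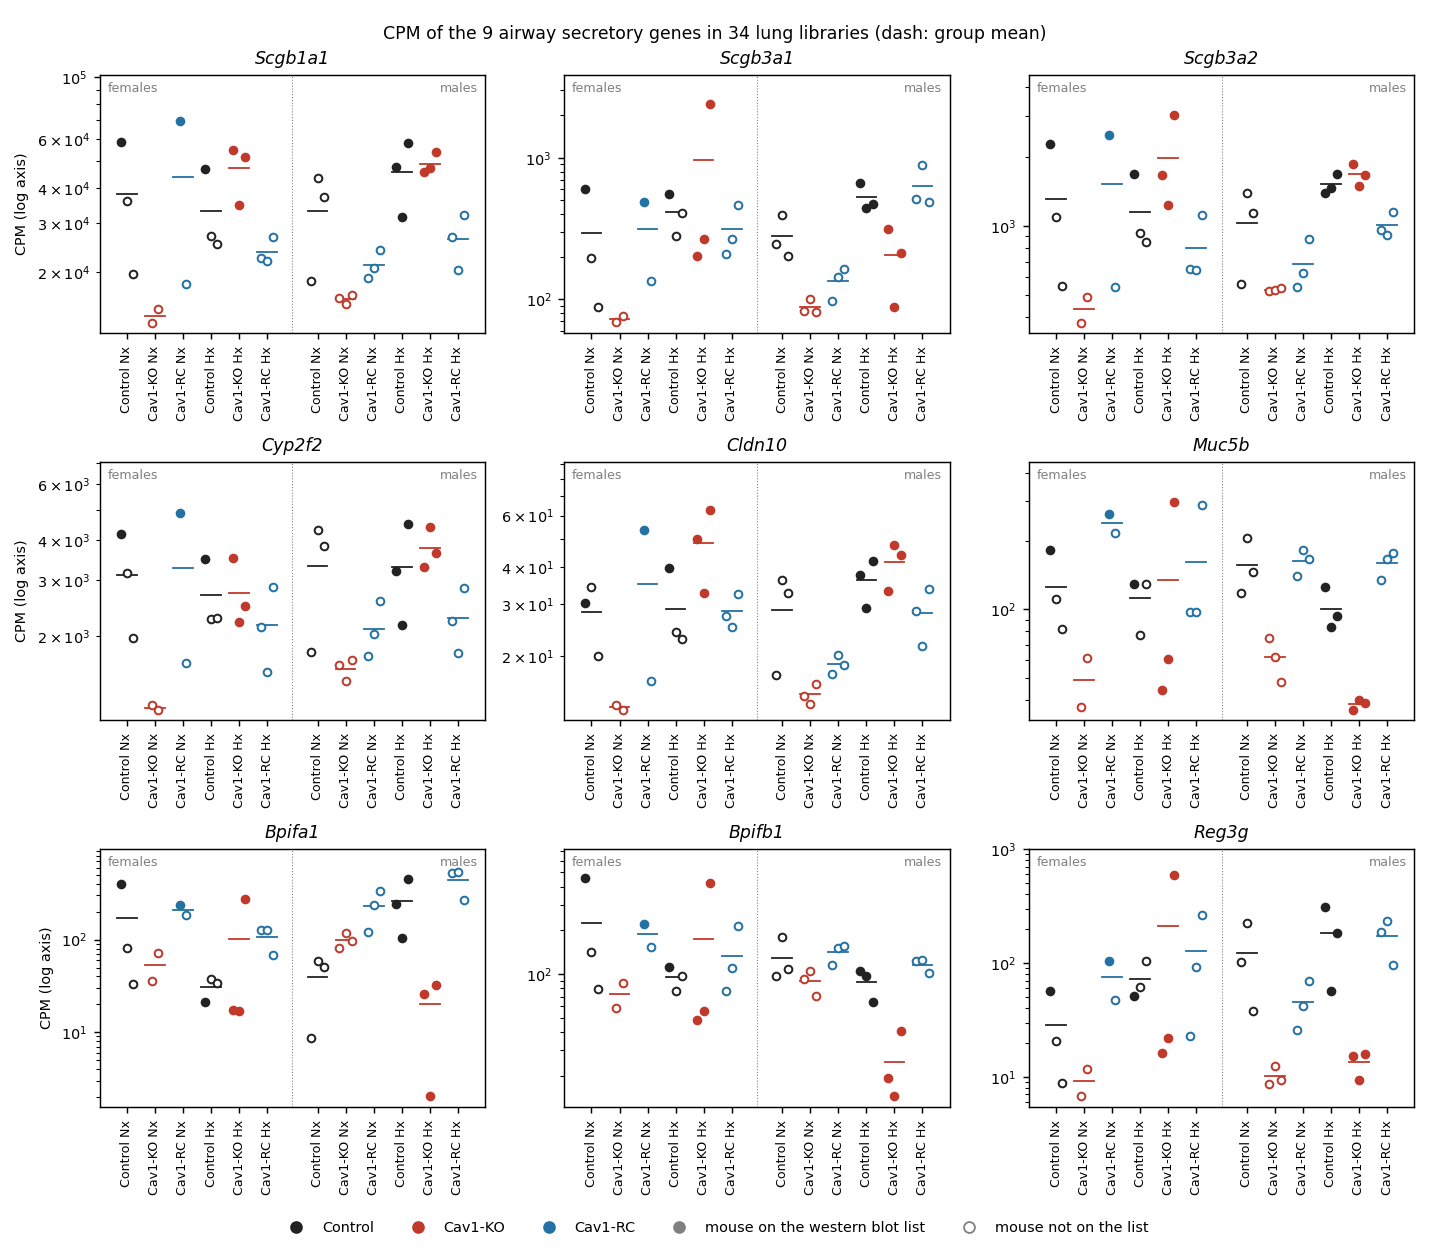
Level of each of the 9 genes in CPM (log axis) in every library of the 12 groups. Filled points are listed mice, open points are the others, and each dash is a group mean. Scgb1a1 sits between 13137 and 69476 CPM, whereas Bpifa1 runs from 2.05 to 538 CPM.

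Of the groups, 3 of females held mice both on and off the western blot list. In those groups Scgb1a1 in the listed library was 2.11-fold (normoxic Control), 3.83-fold (normoxic Cav1-RC) and 1.79-fold (hypoxic Control) the mean of the libraries off the list. Of the 27 pairs of a member and a group, 4 had a library off the list above the listed one. These were Cldn10 in normoxic Control females, at 30.3 CPM in the listed library and up to 34.3 CPM off the list, and Muc5b (128.8 and 129.2 CPM), Bpifa1 (21.3 and 38.0 CPM) and Reg3g (51.5 and 103 CPM) in hypoxic Control females. With 1 listed library and 1 or 2 others in each group, the listed one can be highest even where the list plays no part. The members also share these libraries, so the pairs are not independent, and the share of all genes was not counted. Over all groups the median level of Scgb1a1 was 49711 CPM in the 12 listed libraries and 21286 CPM in the other 22. These sets also differ in genotype and oxygen level. A fit of all 34 libraries with the list as a term beside the 12 groups called 13.5% of 19870 genes different by list, and with them 3 members: Scgb1a1 was 1.23 ± 0.25 (SE) log2 units higher in listed libraries, Scgb3a1 1.55 ± 0.54 and Scgb3a2 1.48 ± 0.29, with adjusted p (edgeR) of 0.000332, 0.0199 and 0.000183. Cyp2f2 and Cldn10 were higher by 0.92 ± 0.27 and 0.80 ± 0.25 with adjusted p (edgeR) of 0.00645 and 0.00914, short of the 1 log2 unit that a call needed. The list term rests on the 3 mixed groups, each with 1 listed female, since groups wholly on or off the list add nothing to it. Its size is carried from these females to the males. The sources used here do not say what set listed mice apart, and the part of the list in any result below was tested only by this fit and, where a group held both kinds, by fits on the libraries off the list alone.

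Promoter sequences are shown for 4 members that were higher in hypoxic Cav1-RC than in hypoxic Cav1-KO males (below), to give the short motifs that lie just before their starts. A promoter was found for 6 of the 9 members, and Muc5b, which was higher in the same comparison, is named only. Each window holds the 250 bases before a RefSeq transcript start on GRCm38.p6, written 5′ to 3′ on the gene's strand. Capitals mark matches, on either strand, to the core promoter box TATAAA, the NKX2-1 core motif CTCAAG, the FOXA motif TGTTTAC, the STAT palindrome TTCNNNGAA or the C/EBP motif TTNNGCAA. The windows are chr11:49663345-49663594 (plus strand) for Scgb3a1, chr2:154142630-154142879 (plus) for Bpifa1, chr2:154190568-154190817 (plus) for Bpifb1 and chr6:78468875-78469124 (minus) for Reg3g.
Scgb3a1: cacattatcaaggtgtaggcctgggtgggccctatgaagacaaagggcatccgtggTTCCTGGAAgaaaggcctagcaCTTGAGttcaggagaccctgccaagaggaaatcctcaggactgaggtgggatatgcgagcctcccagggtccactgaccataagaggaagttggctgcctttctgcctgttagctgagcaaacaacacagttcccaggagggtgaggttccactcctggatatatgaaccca
Bpifa1: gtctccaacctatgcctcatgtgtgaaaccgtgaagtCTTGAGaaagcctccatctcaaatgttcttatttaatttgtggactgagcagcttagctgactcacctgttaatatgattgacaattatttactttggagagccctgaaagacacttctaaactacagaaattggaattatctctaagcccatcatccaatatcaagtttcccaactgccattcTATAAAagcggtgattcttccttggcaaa
Bpifb1: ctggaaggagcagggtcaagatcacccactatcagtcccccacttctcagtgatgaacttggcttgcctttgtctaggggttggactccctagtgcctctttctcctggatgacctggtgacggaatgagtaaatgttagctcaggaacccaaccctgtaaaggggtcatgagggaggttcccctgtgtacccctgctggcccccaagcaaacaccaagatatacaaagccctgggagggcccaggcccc
Reg3g: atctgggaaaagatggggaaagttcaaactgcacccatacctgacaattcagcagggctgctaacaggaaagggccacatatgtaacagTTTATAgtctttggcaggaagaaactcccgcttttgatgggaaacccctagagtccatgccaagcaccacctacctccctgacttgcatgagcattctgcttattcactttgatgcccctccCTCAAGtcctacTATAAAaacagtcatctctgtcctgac
The CTCAAG core or its reverse complement CTTGAG lay in the windows of Scgb3a1, Bpifa1 and Reg3g, and a TATAAA match in those of Bpifa1 and Reg3g. Bpifb1 held none of the 5 motifs in this window, and a second start of it held 1 STAT palindrome. Such short matches are common: of 32851 promoter windows of this length, 13.33% held CTCAAG, 12.37% TATAAA, 7.02% the STAT palindrome, 9.564% the C/EBP motif and 3.166% the FOXA core, so these are descriptions and not sites. Bpifa1 and Bpifb1 are neighbours on chromosome 2, with gene bodies at chr2:154142880-154149219 and chr2:154190818-154220369 (mm10).

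In normoxia, the first question was whether loss of caveolin-1 goes with a change in secretory genes. In males, 3 of 9 members fell in Cav1-KO and none rose, and 7 were lower in every Cav1-KO library than in every Control library, as were 15.5% of all genes tested. A gene was called where it changed by over 1 log2 unit with a Benjamini-Hochberg adjusted p below 0.05 in edgeR's quasi-likelihood test, which held for 5% of 17439 genes in this comparison. All 6 libraries were off the western blot list. Reg3g, a lectin that binds Gram-positive bacteria, was at 102, 225 and 37.9 CPM in Control males and at 8.62, 12.5 and 9.41 CPM in Cav1-KO males. The groups did not overlap, and it fell by 3.59 ± 0.59 (SE) on the log2 scale with an edgeR adjusted p of 0.00902. Scgb3a1 was at 245, 397 and 201 CPM in Control and 82.1, 99.9 and 80.8 CPM in Cav1-KO, again without overlap (log2 fold change -1.70 ± 0.24, edgeR adjusted p = 0.00519). Muc5b, the mucin needed for mucociliary clearance, was at 118, 206.05 and 145 CPM in Control and 74.9, 61.8 and 48.1 CPM in Cav1-KO (log2 fold change -1.36 ± 0.22, edgeR adjusted p = 0.00902).

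The 4 club cell genes, Scgb1a1, Scgb3a2, Cyp2f2 and Cldn10, sat below all Control males as well but did not pass both thresholds. Scgb1a1 was at 18563, 43480 and 37251 CPM in Control males and at 16153, 15383 and 16528 CPM in Cav1-KO males, with a log2 fold change of -1.06 ± 0.32 and an edgeR adjusted p of 0.0692. The log2 fold changes of Scgb3a2, Cyp2f2 and Cldn10 were -0.98, -1.08 and -0.97, with edgeR adjusted p of 0.064, 0.0519 and 0.0424. Control male replicate 1 had the lowest Scgb1a1, Scgb3a2, Cyp2f2 and Cldn10 of its group, and without it all 4 were called, at -1.35, -1.28, -1.39 and -1.23, for 7 called members in all. Bpifa1 went the other way: it was at 8.57, 58.1 and 50.4 CPM in Control and 81.3, 119 and 96.6 CPM in Cav1-KO, above every Control male like 19.6% of all genes tested, with a log2 fold change of 1.33 ± 0.55 and an edgeR adjusted p of 0.157. Bpifb1, its neighbour, overlapped between the groups at -0.55. The Scgb3a1 call held without any 1 of the 6 libraries. The Muc5b call was lost without Cav1-KO male replicate 2 (adjusted p 0.0562) or 3 (0.051) and the Reg3g call without Cav1-KO male replicate 1 (0.0561) or 3 (0.06), all by edgeR.

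Females showed the same direction in the larger part of the list without a call. Scgb1a1 was at 58425, 35789 and 19617 CPM in Control females and at 13137 and 14732 CPM in Cav1-KO females, and Cyp2f2 was at 4192, 3145 and 1975 CPM against 1212 and 1167 CPM. Both Cav1-KO females lay below the 3 Controls for 6 members, as for 16.2% of all genes tested, namely the 3 secretoglobins, Cyp2f2, Cldn10 and Muc5b, with log2 fold changes between -2.06 and -1.10. edgeR called 0 members, with adjusted p from 0.205 to 0.548, where 6 had an unadjusted p below 0.05 and 0.122% of 17269 genes were called. DESeq2's Wald test called 5 members, and 2.95% of the 18145 genes to which it gave an adjusted p. Control replicate 1, which is on the western blot list, had the highest level of 8 of the 9 members among the 3 libraries of its group, and the share of all genes was not counted. With the libraries off the list alone, Scgb1a1 was at -1.02 (edgeR adjusted p = 0.169) and Cyp2f2 at -1.13 (0.0501).

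Over both sexes in 1 fit, 7 members fell in normoxic Cav1-KO, where 5.78% of 18540 genes were called. Reg3g fell by 2.64 ± 0.55 (SE) on the log2 scale and Scgb3a1 by 1.88 ± 0.42, with edgeR adjusted p of 0.0106 and 0.0146. Muc5b fell by 1.37, Scgb3a2 by 1.30, Scgb1a1 by 1.27, Cyp2f2 by 1.25 and Cldn10 by 1.04, with edgeR adjusted p between 0.00485 and 0.0309. The BPI fold genes did not pass: Bpifa1 was at -0.19 (edgeR adjusted p = 0.848) and Bpifb1 at -1.11 (0.0886). With the western blot list as a term, where 4.91% of 19870 genes were called, 4 of the 7 stayed called: Reg3g at -2.36, Scgb3a1 at -1.43, Muc5b at -1.23 and Cyp2f2 at -1.05.

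In hypoxic males, Cav1-KO and Control overlapped in the 4 club cell genes, whereas the other 5 members were lower in every Cav1-KO library, as were 12.8% of all genes tested, and all 6 libraries were on the western blot list. Scgb1a1 was at 47604, 31426 and 58079 CPM in Control and 45747, 47043 and 53869 CPM in Cav1-KO, with a log2 fold change of 0.10 ± 0.25. Scgb3a2, Cyp2f2 and Cldn10 differed by 0.14, 0.20 and 0.20 log2 units, and their groups overlapped. Muc5b, in contrast, was at 125, 83.9 and 93.2 CPM in Control and at 36.2, 39.9 and 38.7 CPM in Cav1-KO, and it fell by 1.40 ± 0.15 (SE) on the log2 scale (edgeR adjusted p = 0.00738). Reg3g was at 310.2, 56.9 and 183 CPM against 15.1, 9.40 and 15.7 CPM and fell by 3.77 ± 0.56 (edgeR adjusted p = 0.024). These were the 2 called members, both lower, where 0.929% of 17759 genes were called.

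Scgb3a1, Bpifa1 and Bpifb1 were also lower in every hypoxic Cav1-KO male than in every hypoxic Control male, though none passed the test. Bpifa1, an airway surface protein that limits bacterial growth, was at 240.0, 103 and 449.8 CPM in Control and 25.8, 2.05 and 32.2 CPM in Cav1-KO (log2 fold change -3.71 ± 0.85, edgeR adjusted p = 0.0747). Bpifb1 was at 105, 96.5 and 63.9 CPM and 19.2, 14.5 and 40.9 CPM (log2 fold change -1.83 ± 0.36, edgeR adjusted p = 0.0527). Scgb3a1 was at -1.36 (edgeR adjusted p = 0.121). Without Control replicate 2, whose Xist level went against its label, 4 members were called, with Muc5b at -1.51, Reg3g at -4.18, Bpifa1 at -4.08 and Bpifb1 at -1.75. The share of all genes called rose as well, to 2.92% of 18501. Leaving out other single libraries gave 0 called members (without Cav1-KO replicate 1), 1 (without Control replicate 1 or 3 or Cav1-KO replicate 3) or 3 (without Cav1-KO replicate 2).

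In hypoxic females no member was called between Cav1-KO and Control by edgeR and 1 had an unadjusted p below 0.05, where 0.768% of 17699 genes were called. All 9 overlapped, while 16.3% of all genes were lower and 16.5% higher in every Cav1-KO library. A single library set the direction for 5 members. Reg3g was at 51.5, 61.0 and 103 CPM in Control and 16.1, 21.9 and 597 CPM in Cav1-KO, and Scgb3a1 was at 551, 282 and 410.5 CPM and 204, 265 and 2411 CPM. Cav1-KO replicate 3 also held the highest Bpifa1, Bpifb1 and Muc5b of its group, at 273, 419.5 and 298 CPM against 17.3 and 16.9, 48.6 and 55.6, and 44.0 and 60.3 CPM in the other Cav1-KO females. With it, the log2 fold changes of Reg3g, Scgb3a1, Bpifa1, Bpifb1 and Muc5b were 1.55, 1.20, 1.71, 0.87 and 0.26. Without it they were -1.92, -0.82, -0.86, -0.87 and -1.10, with edgeR adjusted p between 0.167 and 0.238. The same library had the most Krt5 (6.30 CPM) and Trp63 (2.15 CPM), which mark basal cells of the larger airways, and the highest basal cell sum of its group, 21.0 CPM where the lowest was 2.66 CPM. The part of that difference in these values was not tested. Without Control replicate 1, which is the listed library of that group, Scgb3a2 and Cldn10 were called higher in Cav1-KO, at 1.14 and 1.04. Over both sexes no member was called in hypoxia, where 4.14% of genes were.

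**Figure D2:**
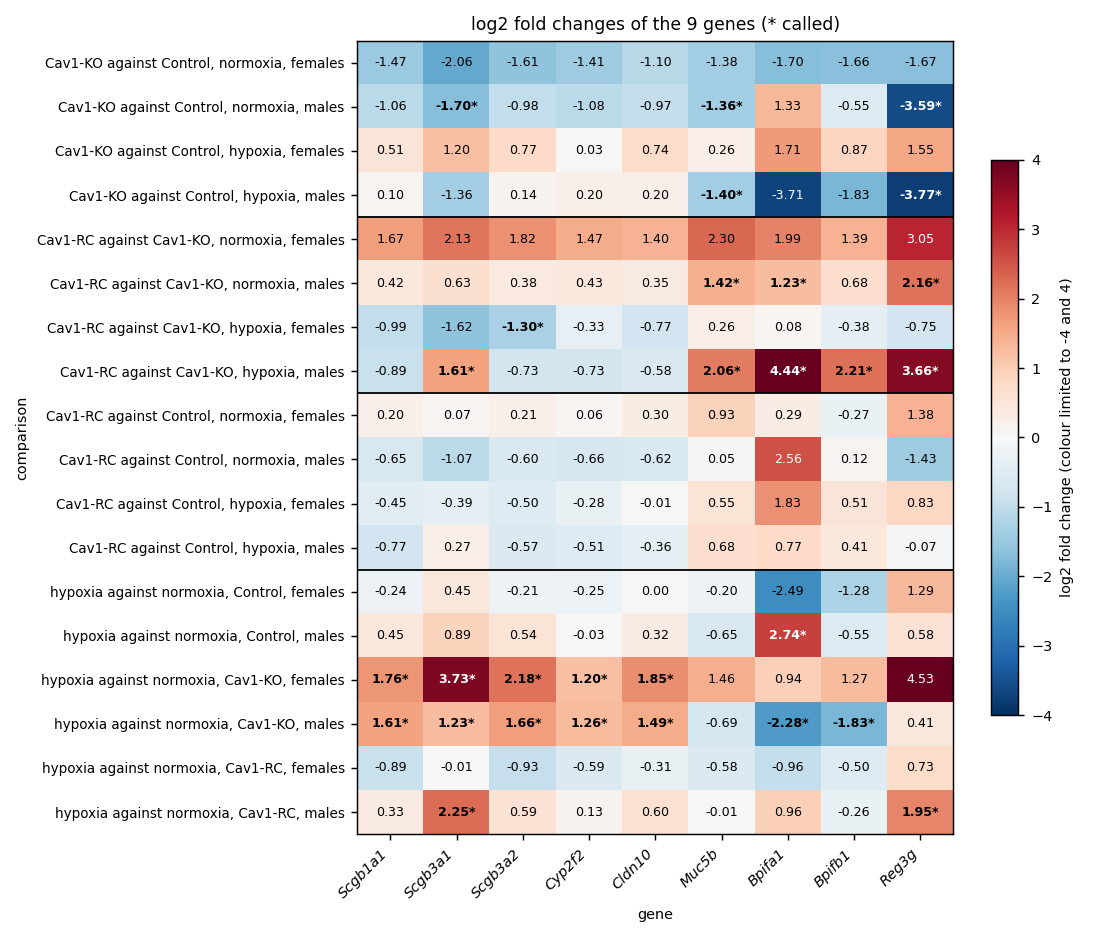
Log2 fold change (edgeR) of the 9 genes, in columns, in the 18 pairwise comparisons, in rows, with colour limited to the range from -4 to 4 and asterisks on called genes. For hypoxia against normoxia in Cav1-KO males, Scgb1a1 (1.61) and Bpifa1 (-2.28) are both called, in opposite directions.

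The effect of hypoxia within each genotype came next. In Cav1-KO the club cell genes rose. In males, 5 members rose and 2 fell, where 17.7% of 17297 genes were called. Scgb1a1 was at 16153, 15383 and 16528 CPM in normoxia and 45747, 47043 and 53869 CPM in hypoxia, with no overlap and a rise of 1.61 ± 0.14 (SE) log2 units (edgeR adjusted p = 6.64e-05). Scgb3a2 went from 519, 527 and 539 CPM to 1860, 1483 and 1669 CPM and Cldn10 from 14.7, 13.7 and 16.1 CPM to 33.2, 47.8 and 44.2 CPM. The log2 fold changes of Scgb3a2, Cldn10 and Cyp2f2 were 1.66 ± 0.11, 1.49 ± 0.15 and 1.26 ± 0.13, with edgeR adjusted p of 2.56e-05, 0.000102 and 0.000147. These 4 calls and those of the BPI fold genes held without any 1 of the 6 libraries. Scgb3a1 rose by 1.23 ± 0.36 (edgeR adjusted p = 0.0183), but its groups overlapped and the call was lost without Cav1-KO normoxia replicate 1 (1.18, adjusted p 0.0618) or 3 (1.17, 0.0683) or Cav1-KO hypoxia replicate 1 (0.79, 0.0569).

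The BPI fold genes, made mainly in larger airways, fell in the same males. Bpifa1 fell from 81.3, 119 and 96.6 CPM to 25.8, 2.05 and 32.2 CPM, a log2 fold change of -2.28 ± 0.62 (edgeR adjusted p = 0.0132). Bpifb1, the longer relative of Bpifa1, fell from 92.6, 104 and 70.6 CPM to 19.2, 14.5 and 40.9 CPM, a log2 fold change of -1.83 ± 0.33 (edgeR adjusted p = 0.00178). Muc5b had the same direction without overlap, at -0.69 ± 0.15 with an edgeR adjusted p of 0.00378, short of 1 log2 unit. Reg3g, which was already low in normoxia, did not pass at 0.41 (0.147).

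In Cav1-KO females 5 members rose and none fell, where 13.3% of 17708 genes were called. Scgb1a1 was at 13137 and 14732 CPM in normoxia and 54816, 34751 and 51817 CPM in hypoxia (log2 fold change 1.76 ± 0.27, edgeR adjusted p = 0.0035). Cldn10 went from 13.7 and 13.1 CPM to 50.1, 32.9 and 62.6 CPM (log2 fold change 1.85 ± 0.27, edgeR adjusted p = 0.00294). Both calls held without any 1 of the 5 libraries, where leaving out a normoxic one leaves 1, assumed to vary like the hypoxic group. Scgb3a1, Scgb3a2 and Cyp2f2 rose by 3.73, 2.18 and 1.20 log2 units with edgeR adjusted p of 0.0409, 0.00582 and 0.00588. Without Cav1-KO normoxia replicate 1 the 2 calls left were those of Scgb1a1 and Cldn10, and without normoxia replicate 2 there were 3, with Scgb3a2. Without the hypoxic replicate 3 described above, 7 members were called: Scgb3a1 was at 1.70, Reg3g was called at 1.06 (edgeR adjusted p = 0.0196) and Bpifa1 turned to -1.64 (0.00455). Leaving out hypoxic replicate 1 put Cyp2f2 at 0.98 and Reg3g at 5.09 (0.0408).

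All hypoxic Cav1-KO mice were on the western blot list and no normoxic ones were, so in these comparisons hypoxia and the list cannot be told apart within the groups. The fit of all 34 libraries with the list as a term, which takes the list's size from the 3 mixed groups, all female, called 0 members in either sex. In it Scgb1a1 was at 0.53 in females and 0.38 in males, Scgb3a2 at 0.71 and 0.18, Cyp2f2 at 0.29 and 0.34, and Cldn10 at 1.05 and 0.68. Scgb3a1 stood at 2.18 in females and turned to -0.32 in males. Bpifa1 and Bpifb1 in males were at -3.36 and -2.91, at least as far from 0 as before, with an edgeR adjusted p of 0.0721 for Bpifb1. That fit called few genes of any kind, 55 in females (0.277% of 19870) and 79 in males (0.398%).

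**Figure D3:**
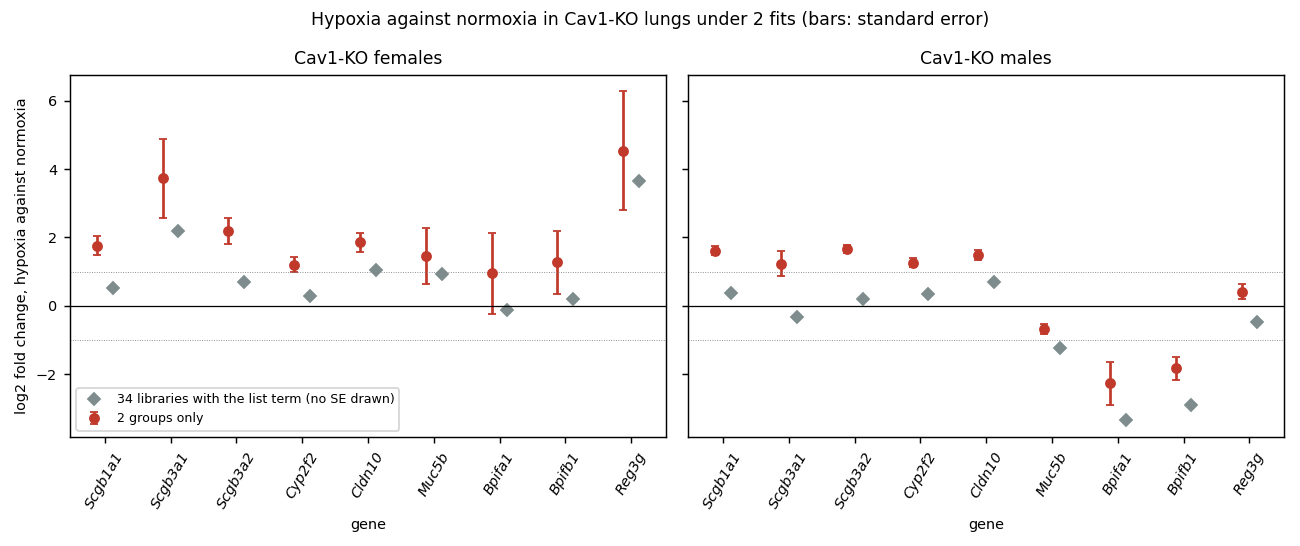
Log2 fold change of hypoxia against normoxia in Cav1-KO females and males for the 9 genes, with bars of 1 standard error, from the fit of the groups compared and from the fit of 34 libraries with the western blot list as a term. Scgb1a1 in males moves from 1.61 to 0.38, whereas Bpifa1 in males stays below 0, at -2.28 and -3.36.

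In Control and Cav1-RC mice the members called with hypoxia were 1 and 2 in males and 0 in females of either genotype. Bpifa1 was the 1 called in Control males, where 6.36% of 17853 genes were: it was at 8.57, 58.1 and 50.4 CPM in normoxia and 240.0, 103 and 449.8 CPM in hypoxia, a log2 fold change of 2.74 ± 0.73 (edgeR adjusted p = 0.0411). That call was lost when any of the normoxic replicates 1, 2 and 3 (adjusted p 0.0517, 0.059 and 0.0826, edgeR) or the hypoxic replicates 1 and 3 (0.0953 and 0.141) was left out, and list and condition cannot be told apart in it. Without hypoxic replicate 2, whose Xist went against the label, it was at 3.14 (0.0239, edgeR). Scgb1a1 differed by 0.45 ± 0.35 and overlapped. Control females gave 0 calls by edgeR with 1 unadjusted p below 0.05, where 0.0175% of 17136 genes were called, and Bpifa1 had there a log2 fold change of -2.49 ± 0.83 (edgeR adjusted p = 0.871). In normoxia it was at 396, 81.0 and 33.0 CPM in these females and in hypoxia at 21.3, 38.0 and 34.2 CPM. With the libraries off the list alone Reg3g was called higher in hypoxic Control females, at 2.42 (edgeR adjusted p = 0.0112), where 8.47% of all genes were called.

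In Cav1-RC males, all off the list, 2 members rose, where 2.27% of 17058 genes were called. Scgb3a1 was at 96.9, 144 and 163 CPM in normoxia and 509.6, 896 and 484 CPM in hypoxia, a rise of 2.25 ± 0.27 (SE) log2 units (edgeR adjusted p = 0.00396). Reg3g was at 25.6, 41.5 and 69.0 CPM and 187, 233 and 95.5 CPM, a rise of 1.95 ± 0.38 (edgeR adjusted p = 0.0192). Neither pair of groups overlapped. Without normoxic replicates 1 and 2, whose Xist went against the label, Scgb3a1 was at 1.96 (adjusted p 0.12) and Reg3g at 1.33 (0.338), and neither was called by edgeR, in a fit with 1 normoxic library left, assumed to vary like the hypoxic group. The Reg3g call was also lost without normoxic replicate 1 alone (1.65), normoxic replicate 2 alone (1.89) or hypoxic replicate 2 (1.66), whereas Scgb3a1 kept its call in each. Scgb3a2 and Cldn10 were above the normoxic range at 0.59 and 0.60 with edgeR adjusted p of 0.0703 and 0.0501. Cav1-RC females gave 0 calls by edgeR with 1 unadjusted p below 0.05, where 0.0285% of 17566 genes were called, and their Scgb1a1 was at 69476 and 18135 CPM in normoxia and 22496, 21946 and 26614 CPM in hypoxia.

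Over both sexes, 6 members were higher in hypoxic than in normoxic Cav1-KO (17.6% of 18487 genes called), and 0 were called in Control (0.846%) and in Cav1-RC (1.22%). With the list as a term the members called were 0 in Cav1-KO, 1 in Control (Bpifb1 at -1.28) and 1 in Cav1-RC (Scgb3a1 at 1.64). The fit with that term called 138, 961 and 299 of 19870 genes in these genotypes, in this order. Without that term the mean difference in Cav1-KO was 2.48 log2 units for Scgb3a1, 2.47 for Reg3g, 1.92 for Scgb3a2, 1.68 for Scgb1a1, 1.67 for Cldn10 and 1.23 for Cyp2f2. The values of Scgb3a1 and Reg3g rest largely on hypoxic Cav1-KO female replicate 3: without it the female difference went from 3.73 to 1.70 for Scgb3a1 and from 4.53 to 1.06 for Reg3g, and in males Reg3g was at 0.41 (edgeR adjusted p = 0.147) with overlapping groups. Whether the effect of hypoxia differed between genotypes was not tested.

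The question put by the Cav1-RC mice was what returning caveolin-1 to endothelium goes with. In normoxic males, all off the list, 3 members were higher in Cav1-RC than in Cav1-KO and none lower, where 3.59% of 17143 genes were called. Muc5b was at 74.9, 61.8 and 48.1 CPM in Cav1-KO and 139.9, 183 and 167 CPM in Cav1-RC (log2 fold change 1.42 ± 0.15, edgeR adjusted p = 0.000153). Reg3g was at 8.62, 12.5 and 9.41 CPM and 25.6, 41.5 and 69.0 CPM (log2 fold change 2.16 ± 0.31, edgeR adjusted p = 0.00137), and Bpifa1 at 81.3, 119 and 96.6 CPM and 119.5, 239 and 332.96 CPM (log2 fold change 1.23 ± 0.29, edgeR adjusted p = 0.0193). The Muc5b and Reg3g groups stood apart without overlap, as for 8 of the 9 members and 14.6% of all genes in this direction, and these 2 calls held without any single library. The Bpifa1 call was lost without Cav1-KO replicate 1 (1.11, edgeR adjusted p 0.0945) or 3 (1.22, 0.0917) or Cav1-RC replicate 3 (0.87, 0.0502). Without the Cav1-RC libraries whose Xist went against the label, Muc5b was at 1.46, Reg3g at 2.77 and Bpifa1 at 1.76, and edgeR called all 3, but this leaves 1 Cav1-RC library, which the fit assumes to vary like the Cav1-KO libraries. The fit over 34 libraries called 0 members here, both without and with the list as a term, and with that term it called 1.81% of 19870 genes. Of the club cell genes, Scgb1a1 was at 19041, 20626 and 24032 CPM in Cav1-RC males, 0.42 ± 0.10 log2 units above Cav1-KO (edgeR adjusted p = 0.0173), and Scgb3a2, Cyp2f2 and Cldn10 differed by 0.38, 0.43 and 0.35.

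In normoxic females all 9 members were higher in both Cav1-RC libraries than in both Cav1-KO libraries, as were 19.4% of all genes tested, with log2 fold changes from 1.39 for Bpifb1 to 3.05 for Reg3g. edgeR called 0 of them (8 with an unadjusted p below 0.05), where 0.1% of 16981 genes were called, and DESeq2's Wald test called 8, and 2.02% of 18517 genes. Muc5b was at 37.1 and 60.9 CPM in Cav1-KO and 262 and 216 CPM in Cav1-RC, and Scgb1a1 at 13137 and 14732 CPM and 69476 and 18135 CPM. The Cav1-RC libraries were unlike each other, with the listed replicate 1 far above replicate 2 for the club cell genes. Each library left out here leaves 1 in its group, which the fit assumes to vary like the other pair. Without Cav1-RC replicate 1, Muc5b (2.16) and Reg3g (2.38) were called, and without Cav1-RC replicate 2 all 9 were. Without Cav1-KO replicate 1 the 1 call was Reg3g (2.68), and without Cav1-KO replicate 2 there were 3, Muc5b (2.70), Bpifa1 (2.57) and Reg3g (3.48). Over both sexes 5 members were higher in normoxic Cav1-RC than Cav1-KO, where 4.28% of 18085 genes were called: Reg3g by 2.61, Muc5b by 1.86, Bpifa1 by 1.61, Scgb3a1 by 1.38 and Bpifb1 by 1.03 log2 units, with edgeR adjusted p of 0.001, 0.000122, 0.00668, 0.0178 and 0.0041. With the list as a term 1 of them, Muc5b at 1.71, was called, where 2.76% of 19870 genes were.

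In hypoxic males Muc5b, Scgb3a1 and the host defence members were higher in Cav1-RC than in Cav1-KO, with 5 of 9 called, where 14.8% of 17171 genes were called. Bpifa1 was at 25.8, 2.05 and 32.2 CPM in Cav1-KO and 523, 538 and 268 CPM in Cav1-RC, 4.44 ± 0.74 (SE) log2 units higher (edgeR adjusted p = 0.00188). Reg3g was at 187, 233 and 95.5 CPM in Cav1-RC, 3.66 ± 0.33 higher (edgeR adjusted p = 0.0002), and Muc5b at 135, 167 and 177 CPM, 2.06 ± 0.12 higher (edgeR adjusted p = 3.74e-05). Bpifb1 and Scgb3a1 were 2.21 ± 0.33 and 1.61 ± 0.42 higher, with edgeR adjusted p of 0.00112 and 0.0134. All 5 lay above Cav1-KO without overlap, as did 27.5% of all genes, and only the Scgb3a1 call depended on 1 library (1.27, edgeR adjusted p = 0.0536, without Cav1-RC replicate 2).

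The club cell genes had negative fold changes in the same comparison. Scgb1a1 was at 26615, 20341 and 32054 CPM in Cav1-RC males, -0.89 ± 0.25 against Cav1-KO (edgeR adjusted p = 0.018), and Scgb3a2, Cyp2f2 and Cldn10 were at -0.73, -0.73 and -0.58 with edgeR adjusted p of 0.00531, 0.019 and 0.0318, all short of 1 log2 unit. Without Cav1-RC replicate 3, Scgb1a1 was called at -1.04. Here too Cav1-KO was wholly on the list and Cav1-RC wholly off it. With the list as a term the 5 higher members stayed called, at 5.52 for Bpifa1, 4.55 for Reg3g, 3.29 for Bpifb1, 3.16 for Scgb3a1 and 2.60 for Muc5b, while the 4 club cell genes turned to values from 0.18 to 0.75 and none was called. In that fit 2.19% of 19870 genes were called.

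In hypoxic females 3 members were lower in every Cav1-RC than in every Cav1-KO library, as were 23.1% of all genes, and 1 was called, where 8.98% of 17681 genes were: Scgb3a2 was at 1664, 1229 and 3030 CPM in Cav1-KO and 651, 642 and 1116 CPM in Cav1-RC and was lower by -1.30 ± 0.37 (edgeR adjusted p = 0.0389). It was lost without any of Cav1-KO replicates 1 to 3 (edgeR adjusted p 0.0769, 0.0508 and 0.101) or Cav1-RC replicates 1 and 2 (0.102 and 0.116), and was 0.18 with the list as a term. Without Cav1-KO replicate 3, Bpifa1 was called 2.65 log2 units higher in Cav1-RC (edgeR adjusted p = 0.00753), from 0.08 with it. Over both sexes 14.7% of 18237 genes were called in hypoxia and 3 members: Bpifa1 at 2.27, Muc5b at 1.17 and Scgb3a2 at -1.01. With the list as a term Scgb3a2 turned to 0.46 and was not called, and the 3 called were Bpifa1, Bpifb1 and Muc5b, where 3.45% of 19870 genes were.

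Between Cav1-RC and Control no member was called by edgeR in any of the 4 pairwise comparisons. The genes called there were 0.137% in normoxic females, 2.45% in normoxic males, 0.832% in hypoxic females and 9.90% in hypoxic males, and the members with an unadjusted p below 0.05 were 1, 4, 1 and 3. In normoxic males Bpifa1 was at 119.5, 239 and 332.96 CPM in Cav1-RC against 8.57, 58.1 and 50.4 CPM (log2 fold change 2.56 ± 0.65, edgeR adjusted p = 0.0709), and in hypoxic females at 128, 127 and 67.4 CPM against 21.3, 38.0 and 34.2 CPM (1.83 ± 0.32, 0.0639). The groups did not overlap in either, while in normoxic females and hypoxic males they did, at 0.29 and 0.77. Without the normoxic Cav1-RC males whose Xist went against the label, which leaves 1, Bpifa1 was at 3.10 (edgeR adjusted p = 0.436). It was called without Control male normoxia replicate 1 (2.10, with Scgb3a1 at -1.14), without Control male hypoxia replicate 3 (1.38) and without Cav1-RC female hypoxia replicate 3 (2.08). Over both sexes it was the 1 called member in hypoxia, at 1.29 with an edgeR adjusted p of 0.034 (3.73% of 17929 genes), and there was none in normoxia (2.28%). That call was lost with the list as a term (1.90, edgeR adjusted p = 0.141) and in groups without sex, both with 0 members called. With the list term 2.78% of 19870 genes were called. Hypoxic Control males were wholly on the list and hypoxic Cav1-RC mice wholly off it. In hypoxic males Scgb1a1 and Scgb3a2 were at -0.77 and -0.57 with edgeR adjusted p of 0.0468 and 0.0137, and Muc5b at 0.68 (0.0126), none of them past 1 log2 unit.

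The female and male effects were also set against each other directly. The test of the difference called 0 genes in each of the 9 contrasts, a share of 0% of all genes tested, so none was called for a member at this depth and number of mice. In 6 of the 9 contrasts the males included the normoxic Cav1-RC or hypoxic Control libraries whose Xist went against the label, so their female minus male values do not set females against males alone. The lowest unadjusted p among the members was that of Bpifa1 for hypoxia in Control, -5.20 ± 1.26 (SE) log2 units in females relative to males, with an edgeR adjusted p of 0.282, and this contrast is among those 6.

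How far the members moved together was read from their relation to Scgb1a1 within the 22 libraries off the western blot list and within the 12 on it. Off the list, Cyp2f2 (Pearson's r = 0.955, Spearman's rho = 0.930), Scgb3a2 (0.941, 0.965) and Cldn10 (0.935, 0.955) followed Scgb1a1 closely in log2 CPM, each with a permutation p of 1e-05, the smallest that 100000 resamples can give, and 4.5e-05 after adjustment over 18 relations. Without the 2 libraries furthest from the median of Scgb1a1, r was 0.928, 0.926 and 0.930. Foxj1, the regulator of motile cilia and no product of club cells, followed nearly as well (r = 0.867, rho = 0.905, and r = 0.881 without those 2). For Scgb3a1, Muc5b, Reg3g and Bpifb1 the r was 0.642, 0.605, 0.590 and 0.502, with adjusted permutation p of 0.0042, 0.00743, 0.00981 and 0.0348, and their rho was 0.722, 0.554, 0.589 and 0.438, the last with an adjusted permutation p of 0.0856. Bpifa1 had r = 0.067 and rho = 0.0469, with permutation p of 0.768 and 0.837. On the list, Cyp2f2 alone of the 9 passed (r = 0.826, rho = 0.783, adjusted permutation p of 0.00281 and 0.0118), and its r was 0.553 without 2 libraries. These libraries come from several groups, so group differences enter each r.

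**Figure D4:**
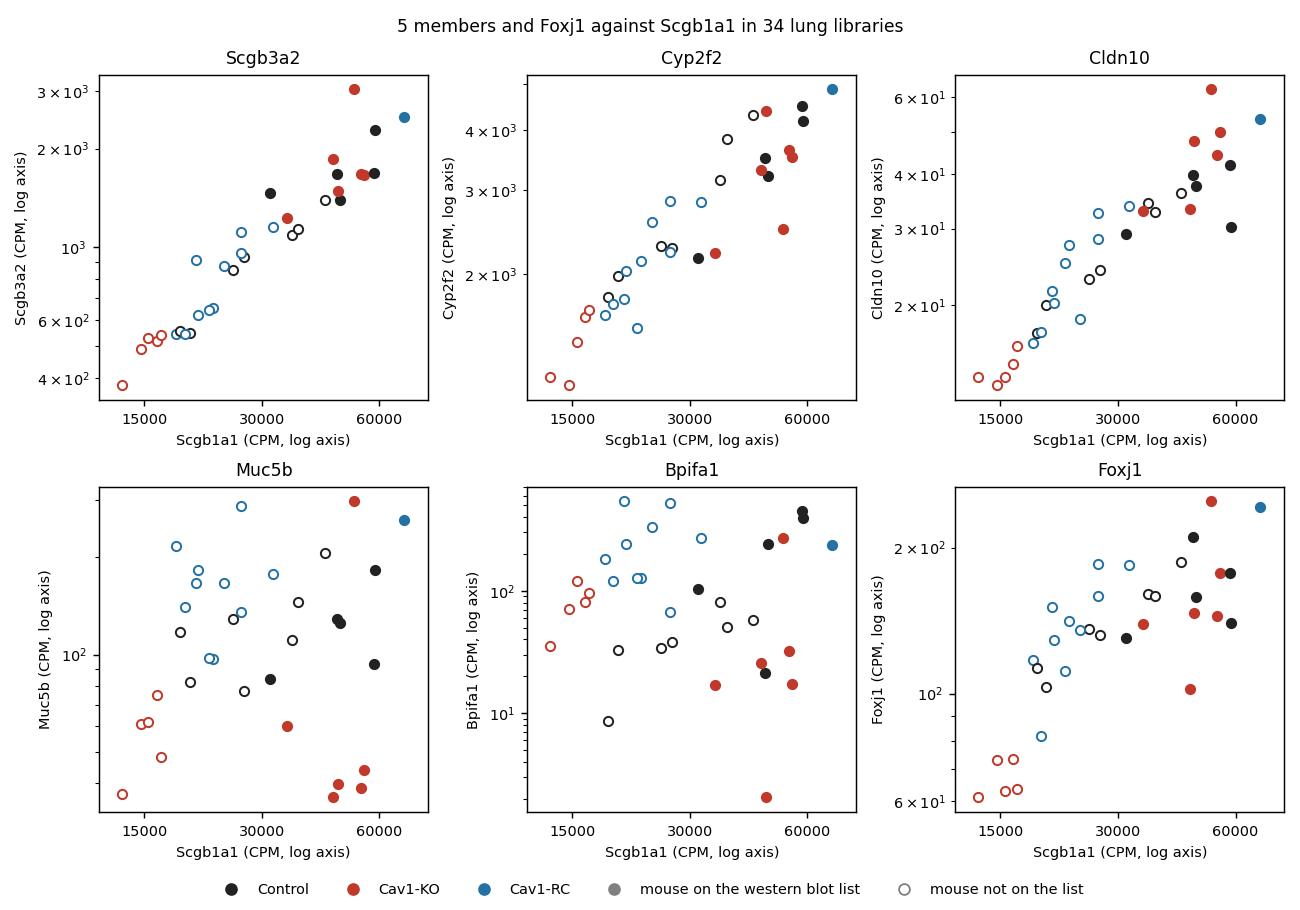
Level of Scgb3a2, Cyp2f2, Cldn10, Muc5b, Bpifa1 and Foxj1 against that of Scgb1a1 in the 34 libraries, in CPM on log axes, with filled points for mice on the western blot list. In the 22 open points Cyp2f2 follows Scgb1a1 at r = 0.955 and Bpifa1 does not, at r = 0.067.

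Of 19861 genes, the 10 with the highest Pearson's r to the mean z-scored log2 CPM of the 9 members over the 34 libraries were Rsph14 (0.908), Gm19935 (0.891), Elof1 (0.889), Tctex1d4 (0.887), Spaca9 (0.885), Fam83e (0.884), 2410004P03Rik (0.879), Lrrc46 (0.877), Foxj1 (0.877) and Capsl (0.876). Rsph14 is named as a radial spoke component and Foxj1 switches on the ciliary programme. Within the 22 libraries off the list Foxj1 was at 0.944 and within the 12 on it at 0.691.

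Foxj1 itself was at 113, 187 and 159 CPM in normoxic Control males and 73.4, 62.9 and 63.6 CPM in normoxic Cav1-KO males, with no overlap. Of 22 ciliated cell genes tested in that comparison, 13 fell and none rose, with a median log2 fold change of -1.06 where the median over all genes was -0.01. Dnah6, a dynein heavy chain, was at -1.28, and Ccdc153 at -1.97. With hypoxia in Cav1-KO, where hypoxia and the western blot list cannot be told apart, 13 of 22 rose in females, with Tmem212 at 3.09 and Dynlrb2 at 1.83, and in males 10 rose and 1 fell, with Cfap126 at 1.67 and Rsph1 at 1.59. The summed level of the list did not rise in those males: it was 2582 to 2602 CPM in normoxia and 1810 to 2631 CPM in hypoxia, with a median of 2529 CPM. Over the 18 comparisons, 9 had a call in this list. Its part in the values of the members was not tested. Of all genes tested, the share called was 5% in the normoxic Cav1-KO against Control males, 13.3% for hypoxia in Cav1-KO females and 17.7% in Cav1-KO males.

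Other club cell genes, 18 in number, had calls in 8 comparisons. In normoxic Cav1-KO males 4 fell, where 5% of all genes were called, among them Cyp2s1 at -1.05, Upk3a at -2.22 and Cyp2a5 at -1.21, with a list median of -0.46. With hypoxia in Cav1-KO, 5 rose and 2 fell of 17 in females (13.3% of all genes called), with the haptoglobin gene Hp at 1.46, Chad at 1.69 and Cyp2s1 at 1.19, and 4 rose and 1 fell in males (17.7%), with Chad at 1.00 and Cyp2b10 at -1.59. The goblet cell and mucin list had calls in 10 comparisons. In normoxic Cav1-KO males 6 of 14 fell (5% of all genes called), with Pigr, which carries IgA across epithelium, at -3.02, the trefoil factor Tff2 at -2.77 and the membrane mucin Muc4 at -1.32, and the list median was -1.03. In Cav1-RC males against Cav1-KO, 4 of 12 were higher in normoxia (3.59% of all genes called), with Tff2 at 2.42, Clca1 at 3.80 and Pigr at 1.47, and 6 of 13 in hypoxia (14.8%), with Tff2 at 3.28, Muc16 at 2.23 and Fcgbp at 2.02. Clca1 ranged from 0 to 100.2 CPM over the libraries.

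Secreted host defence genes also had calls in 10 comparisons. In normoxic Cav1-KO males 5 of 10 fell (5% of all genes called), with lactoferrin (Ltf) at -2.43, Pglyrp1 at -1.84 and Cxcl17 at -1.15. In hypoxic Cav1-KO males 3 fell against Control (0.929% of all genes called), with Dmbt1, a mucosal scavenger receptor, at -6.44, Ltf at -2.68 and the protease inhibitor Slpi at -1.09. Against those males 4 of 11 were higher in hypoxic Cav1-RC (14.8%), with Dmbt1 at 9.46, Ltf at 3.73 and Lcn2 at 1.89, and with hypoxia in Cav1-RC males 6 of 11 rose and none fell (2.27%). Of the 19 other secretoglobin, BPI fold and Reg genes, 2 or 3 could be tested in a comparison, with at most 1 higher and 1 lower in the 4 that had a call. These were hypoxic Cav1-RC against Cav1-KO females and males and hypoxia in Cav1-KO females and males, where 8.98%, 14.8%, 13.3% and 17.7% of all genes were called. Regulators of airway secretory cells had calls in 7 comparisons, at most 3 of 18 higher, for hypoxia in Cav1-KO females (13.3% of all genes called) and males (17.7%), and at most 2 of 18 lower, in hypoxic Cav1-RC against Cav1-KO females (8.98%). Sox2, which maintains airway identity, was the 1 called of 18 in normoxic Cav1-KO males (5%), at -1.01. The interleukin-17 and interleukin-22 genes, 2 to 5 of 10 tested, had calls in 6 comparisons, with at most 1 higher and 1 lower. These were hypoxic Cav1-RC against Cav1-KO females (8.98% of all genes called) and males (14.8%), hypoxic Cav1-RC against Control males (9.90%), and hypoxia in Cav1-KO females (13.3%), Cav1-KO males (17.7%) and Cav1-RC males (2.27%).

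Basal cell genes had calls in 3 comparisons, all of them with hypoxic Cav1-KO males. Krt5 was at -5.39 and Krt15 at -3.10 against hypoxic Control males (0.929% of all genes called), and hypoxic Cav1-RC males had 4 of 6 higher than Cav1-KO (14.8%), with Krt5 at 4.82, Krt15 at 4.05 and Aqp3 at 3.66. With hypoxia in Cav1-KO males 4 of 6 fell (17.7%), with Krt5 at -4.43. The list summed to 2.69 to 2.87 CPM in hypoxic Cav1-KO males, 10.6 to 11.9 CPM in hypoxic Control males and 7.88 to 17.2 CPM in hypoxic Cav1-RC males, and Krt5 was at 0 in the lowest library. Muc5b, Bpifa1 and Bpifb1 had their lowest group means in the same hypoxic Cav1-KO males, and the part of basal cells or of larger airway in the tissue was not tested.

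Neuroendocrine genes had calls in 6 comparisons, at most 3 of 7 higher, with hypoxia in Cav1-KO females, where 13.3% of all genes were called. Airway cartilage genes had calls in 4, at most 2 of 4 higher with hypoxia in Cav1-KO males (17.7% of all genes called) and 2 of 4 lower in hypoxic Cav1-RC than Cav1-KO males (14.8%). Alveolar type 2 genes had calls in 8, at most 5 of 11 lower with hypoxia in Cav1-KO males (17.7%) and 3 of 11 higher in hypoxic Cav1-RC than Cav1-KO in females (8.98%) and males (14.8%). Alveolar type 1 genes had calls in 8, at most 5 of 11 lower with hypoxia in Cav1-KO males (17.7%) and 4 of 11 higher in hypoxic Cav1-RC than Cav1-KO males (14.8%). Of the general epithelial genes, 1 of 11 was called in 3 comparisons, Cldn4 each time: lower in normoxic Cav1-RC than Control males (2.45% of all genes called) and higher with hypoxia in Cav1-KO females (13.3%) and Cav1-RC males (2.27%). The squamous list had 1 call, Sprr1a in hypoxic Cav1-RC against Cav1-KO females (8.98%), with 1 of 6 genes tested in each comparison. It summed to 0.793 to 19.0 CPM in hypoxic Cav1-KO females and to at most 3.44 CPM in every other group. Cardiac muscle genes had calls in 8 comparisons, with 9 of 9 lower in hypoxic than in normoxic Control males (6.36% of all genes called) and 10 of 10 higher in hypoxic Cav1-RC than in hypoxic Control males (9.90%). They summed to 166 to 1697 CPM over the libraries, and their part in the values of the members was not tested.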

How the data were processed

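RNA was taken from whole mouse lung, and poly-A selected, directional libraries were sequenced. The authors aligned reads with HISAT2 2.0.5 to mm10 and counted them with featureCounts 1.5.0-p3, per the labels' processing notes, and deposited raw counts per gene for 35 libraries. FPKM values of the same genes were deposited beside the counts by the authors and were used here for levels between genes and for limma.

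Counts were tested in R 4.3.3 with edgeR 4.0.16 (filterByExpr, TMM, quasi-likelihood test) for 18 pairs of groups within a sex, and in fits of 4 groups for the mean of both sexes and the female minus male difference. A gene was called at over 1 log2 unit with a Benjamini-Hochberg adjusted p below 0.05 over all genes tested. A standard error is the log2 fold change divided by the root of the F statistic. Correlations have permutation p-values. The edgeR step was tested on simulated data. The members and the 15 gene lists used beside them were chosen with earlier results of these data known. Named genes are the members, Cav1, Xist and Y-linked genes, up to 3 called genes of a list and comparison with the smallest adjusted p, and the 10 genes most alike to the members; 1 gene under this rule is not reported here. Basal, ciliated and squamous markers given as levels, and Foxj1, were chosen as defining markers. The labels give all libraries 1 batch date. Library names carry animal numbers, so replicates were taken as separate mice.

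Alternatives were DESeq2 1.42.0, limma 3.58.1 on log2 FPKM with a pseudocount of 0.1 or 1, other size factors and filters, no fold threshold, a replicate block, a fit of 34 libraries with and without the western blot list, groups without sex, libraries off the list alone, and each library left out. Leaving out the libraries whose Xist went against the label was chosen after seeing the data for the pairwise comparisons. Sequences are from RefSeq.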

Additional observations from a re-analysis of the deposited data

Results flagged for a closer look

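The library without a group, whose identity the labels call uncertain, held Cldn10 at 45.8 CPM. The highest of the Control libraries was at 42.0 CPM, and a level above it in a library outside the comparisons is what singled this value out. The library took part in no test.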

How the results depend on the processing

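Of the numbers of called members, 260 stayed within 1.5 times under an alternative and 91 did not. Of the members' log2 fold changes, 2689 kept their direction and side of the threshold, and 199 changed sign without a call in either fit. A further 142 became called, 124 lost their call and 5 reversed, which is a change of sign with a call in either fit. Unless the alternative itself uses fewer libraries or genes, the cause was not tested.

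Called members were 0 in normoxic Cav1-KO against Control females and normoxic Cav1-RC against Cav1-KO females. DESeq2's Wald test gave 5 and 8 there, 5 and 4 in normoxic and hypoxic Cav1-KO against Control males, 2 in normoxic Cav1-RC against Control males, 1 in hypoxic Cav1-RC against Control females and 1 in hypoxic Cav1-RC against Cav1-KO over both sexes. Of the genes to which it gave an adjusted p, it called 2.95%, 2.02%, 5.23%, 2.47%, 3.23%, 2.55% and 13.1% in these comparisons, in this order. With no filter the members called were 9 and 9 in the first pair, 6 and 5 in the Cav1-KO against Control males, 2 in hypoxic Cav1-RC against Cav1-KO females, 3 in normoxic Cav1-RC against Control males, 1 in hypoxic Cav1-RC against Control females, 8 for hypoxia in Cav1-KO females and 2 for hypoxia in Cav1-RC over both sexes. One fit over 34 libraries gave 1 in normoxic Cav1-KO against Control males, 1 and 0 in normoxic Cav1-RC against Cav1-KO females and males, and 0 for hypoxia in Control and Cav1-RC males. limma on FPKM with a pseudocount of 0.1, with a pseudocount of 1, and with 0.1 and no filter gave 1, 0 and 0 in hypoxic Cav1-KO against Control males, 0 each in hypoxic Cav1-RC against Cav1-KO females and for hypoxia in Control males, 3, 3 and 2 for hypoxia in Cav1-KO females and 1 each in Cav1-RC males, and without the filter 4 in Cav1-KO males. The shares of all genes called with no filter, with the fit over 34 libraries or with limma are not given here, so these counts are not set against them.

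With the western blot list as a term, 0 members were called in normoxic Cav1-RC against Cav1-KO males, hypoxic Cav1-RC against Cav1-KO females, and hypoxia in Control males, Cav1-KO females, Cav1-KO males and Cav1-RC males. Over both sexes it gave 4 in normoxic Cav1-KO against Control, 1 in normoxic Cav1-RC against Cav1-KO, 0 in hypoxic Cav1-RC against Control, and 1, 0 and 1 for hypoxia in Control, Cav1-KO and Cav1-RC. It reversed Scgb3a2 in hypoxic Cav1-RC against Cav1-KO to 0.18 in females and 0.46 over both sexes, and Scgb3a1 for hypoxia in Cav1-KO males to -0.32. Libraries off the list alone gave 1 for hypoxia in Control females, where 8.47% of all genes were called, and groups without sex 0 in hypoxic Cav1-RC against Control. With no fold threshold the members called were 6, 2 and 9 in Cav1-RC against Cav1-KO for normoxic males, hypoxic females and hypoxic males, 3 in hypoxic Cav1-RC against Control males and 6 in hypoxic Cav1-RC against Cav1-KO over both sexes. The shares of all genes with no fold threshold are not given here. Without the libraries whose Xist went against the label, there were 4 in hypoxic Cav1-KO against Control males, where 2.92% of all genes were called. For hypoxia in Cav1-RC males this left 1 normoxic library.

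When single libraries were left out (a group of 2 then holds 1, assumed to vary like the other group), the called members ran from 1 to 7 and 0 to 4 in normoxic and hypoxic Cav1-KO against Control males, 0 to 2 in hypoxic Cav1-KO against Control females, 1 to 9, 0 to 1 and 4 to 6 in Cav1-RC against Cav1-KO for normoxic females, hypoxic females and hypoxic males, 0 to 2, 0 to 1 and 0 to 1 in Cav1-RC against Control for normoxic males, hypoxic females and hypoxic males, and for hypoxia 0 to 1 in Control males, 2 to 7 and 6 to 7 in Cav1-KO females and males and 1 to 2 in Cav1-RC males. Bpifa1 for hypoxia in Cav1-KO females reversed to -1.64 without Cav1-KO hypoxia replicate 3. The shares of all genes called with single libraries left out are not given here, so these ranges are not set against them.

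Replicate numbers are shared between groups, but they mark no common animal, litter or day, and in 0 comparisons with 3 pairs did every same-numbered pair correlate above 0.1 (r from -0.235 to 0.681 over 18 comparisons). With 2 pairs, both did in normoxic Cav1-RC against Control females (0.681 and 0.190), too few to take the numbers as a pairing, so the samples were taken to share only a number. With the replicate block the members called were 8 and 5 in normoxic Cav1-KO against Control and Cav1-RC against Cav1-KO females, 4 in hypoxic Cav1-KO against Control males, 2 in normoxic Cav1-RC against Control males and 0 for hypoxia in Control males, and Bpifa1 for hypoxia in Cav1-KO females was -1.58.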

Other observations

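The library without a group held 30930450 counts. Its animal number is among those of the western blot source data, where it stands as a normoxic Cav1-KO female. It had 4.67 CPM of Cav1, 668 CPM of Xist and 0.648 CPM of Ddx3y. Scgb1a1 was at 53576 CPM, Cyp2f2 at 3437 CPM, Scgb3a2 at 1940 CPM and Scgb3a1 at 652 CPM. Bpifa1 was at 154 CPM, Bpifb1 at 118 CPM, Muc5b at 89.7 CPM and Reg3g at 69.4 CPM, and Foxj1 stood at 150.1 CPM. The normoxic Cav1-KO females that have a group, neither of them on the list, had 13137 and 14732 CPM of Scgb1a1.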
